A study of Rattus norvegicus with 30 samples.

Results

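The urea cycle is the liver pathway that turns ammonia into urea, and its enzymes in this series were read as 5 genes, Cps1, Otc, Ass1, Asl and Arg1. The members were the probe sets that the platform's gene table assigns to those names, 7 of the 31042 probe sets on the array that are not controls, and all 7 passed the filter on low values. In gene tests each gene was read by 1 probe set, so the members were 5 of 10522 tested genes. The study exposed primary rat hepatocytes, frozen cells bought from a supplier and taken from male Sprague Dawley rats, to dioctyl phthalate, a plasticizer, at 250 or 1000 µM, or to the DMSO vehicle, for 24 or 48 h. Cells were kept on collagen, and dosing, in 1% DMSO for every group including the controls, began on day 3 of culture. This gave 6 groups, 3 at each time, with 5 separately cultured wells and 1 array per well, 30 arrays in all. The labels do not tell how many animals gave the cells, so errors and p-values describe the spread between wells. Replicate numbers below only name arrays.

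In the mitochondrion, carbamoyl phosphate synthetase 1 (Cps1) joins ammonia and bicarbonate into carbamoyl phosphate, and ornithine transcarbamylase (Otc) passes the carbamoyl group to ornithine to give citrulline. In the cytosol, argininosuccinate synthetase (Ass1) joins citrulline with aspartate, argininosuccinate lyase (Asl) splits the product into arginine and fumarate, and arginase 1 (Arg1) cleaves arginine into urea and ornithine, which returns to the mitochondrion. In liver these enzymes are most abundant in hepatocytes around the portal vein, and their genes are known to respond to glucocorticoids, glucagon through cyclic AMP, and liver transcription factors.

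Dioctyl phthalate lowered RNA for part of the cycle. Ass1 was lower in every comparison with vehicle, by 35.3% to 42% in mean signal. Otc was lower at 24 h and did not pass the test at 48 h, and Asl fell less than Ass1. In the main fit, Arg1 did not pass the test in any comparison with vehicle. The 2 probe sets of Cps1 gave different answers, since one fell in all 4 comparisons and the other passed the test in none.

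The promoter sequences of Cps1, Otc and Ass1 are shown because only in these did a searched motif occur, among the members with a promoter. Promoters were available for 4 members (Cps1, Otc, Ass1 and Asl), from RefSeq on GRCr8, and there was none for Arg1. Each run below is the 200 bases before the annotated start, read 5′ to 3′ on the gene's strand, and capitals mark matches to a searched motif. They lie at chr9:76063663-76063862 on the plus strand for Cps1, chrX:15202474-15202673 on the minus strand for Otc and chr3:35149530-35149729 on the plus strand for Ass1.
Cps1: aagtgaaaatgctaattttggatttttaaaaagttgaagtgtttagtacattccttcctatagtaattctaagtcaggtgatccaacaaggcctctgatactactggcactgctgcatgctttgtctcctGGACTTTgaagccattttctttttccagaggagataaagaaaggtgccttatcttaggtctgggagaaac
Otc: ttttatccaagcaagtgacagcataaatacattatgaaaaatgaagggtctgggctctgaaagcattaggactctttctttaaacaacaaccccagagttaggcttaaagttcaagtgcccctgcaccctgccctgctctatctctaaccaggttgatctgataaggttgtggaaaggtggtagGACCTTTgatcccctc
Ass1: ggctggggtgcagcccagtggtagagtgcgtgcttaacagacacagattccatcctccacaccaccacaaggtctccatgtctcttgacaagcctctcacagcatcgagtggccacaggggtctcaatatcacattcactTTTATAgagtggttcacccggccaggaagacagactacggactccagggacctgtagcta
The motifs, searched on both strands and chosen with these sequences in view, were the TATA box motif TATAAA, the CCAAT box, the half-site of nuclear receptors AGGTCA, one HNF4 core AAAGGTC, another HNF4 core AAAGTCC, the half-site of cyclic AMP response TGACG, the C/EBP half-site GCAAT and the half-site of the glucocorticoid receptor TGTTCT. HNF4 is a nuclear receptor that drives many hepatocyte genes. AAAGTCC occurred in Cps1, on the opposite strand, 70 to 64 bases before the start, and in 3.22% of 33469 rat promoters of the same length. AAAGGTC occurred in Otc, also on the opposite strand, 16 to 10 bases before the start, and in 2.53% of all promoters. In Ass1 the single match was TATAAA on the opposite strand, 60 to 55 bases before the start, which 10.4% of all promoters hold. In Asl none of these letters occurred in the window, and no motif was found in more than 1 of the 4 promoters. These matches describe letters, not bound sites.

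The deposited values are MAS5 signals on a linear scale. They were taken as log2 of the signal plus 1, so 1 unit is a doubling of that quantity, and each log2 change below carries its standard error from limma, a linear model with moderated variances fitted over all arrays. A gene was called changed at a Benjamini-Hochberg adjusted p under 0.05 over all tested genes. Array medians lay between 8.44 and 8.79, and their number, 5 per group, limits the precision. The 3′/5′ log2 ratio of the beta-actin control probe sets, which is higher in degraded or truncated RNA, was 1.72 ± 0.494 (SD, n = 5) in vehicle at 48 h against group means of 1.14 to 1.30 elsewhere, and 0 of 21 exact permutation tests of array quality had an adjusted p under 0.05 (5 had an unadjusted p under 0.05). The same ratio for Gapdh was 0.219 ± 0.0545 (SD, n = 5) in vehicle at 48 h against group means of 0.123 to 0.147 elsewhere. Because 4 of the 5 vehicle arrays at 48 h had an actin ratio above every 24 h vehicle array, results at 48 h are also given with that ratio as a covariate and without those 4 arrays. By the same limit 1 of 5 arrays at 250 µM and 48 h, 3 of 5 at 1000 µM and 48 h and 1 of 5 at 1000 µM and 24 h were raised too. Hepatocyte markers were present, with 8 of 8 on the array above the limit on low signal (234).

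Of the 5 enzymes, 3 were called lower at 24 h after 250 µM and 3 after 1000 µM, and 2 were called lower at 48 h after each dose; none was called higher. Over all tested genes, 11% were called lower at 250 µM and 24 h, 11.2% at 1000 µM and 24 h, 26% at 250 µM and 48 h, and 18.3% at 1000 µM and 48 h, while 8.3%, 8.27%, 15.2% and 11.5% were called higher. At 24 h the called enzymes were Otc, Ass1 and Asl, and at 48 h Ass1 and Asl. The dosed and vehicle arrays of these genes did not overlap in those comparisons, as was also so, in the lower direction, for 8% and 7.82% of all genes at 24 h (250 and 1000 µM) and for 15.1% and 10.9% at 48 h. The median change of the 5 members was -0.19 and -0.21 at 24 h and -0.12 and -0.16 at 48 h, beside medians over all genes of -0.027, -0.035, -0.07 and -0.044. The comparisons of both doses at one time share their vehicle arrays.

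**Figure D1:**
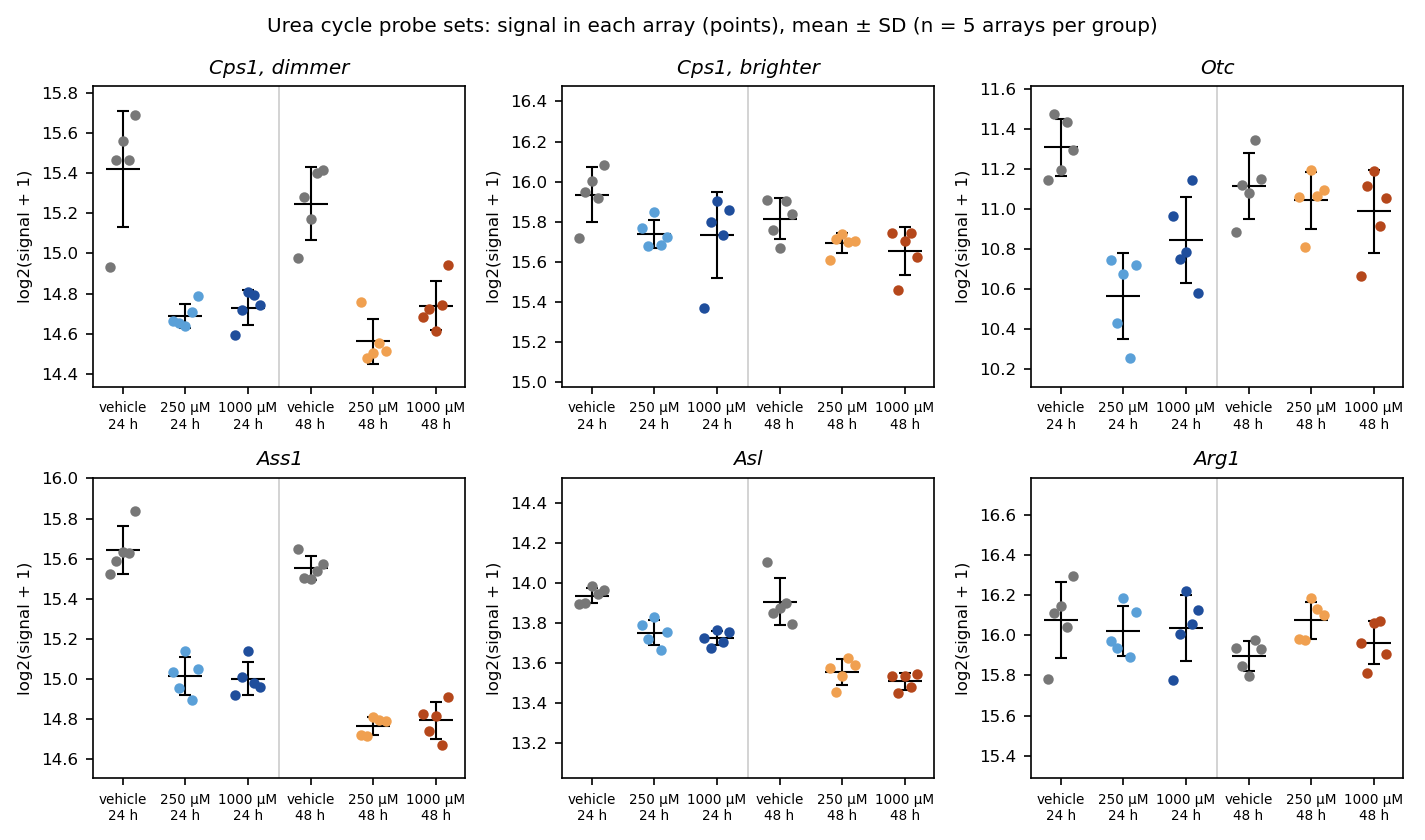
Log2(signal + 1) of 6 probe sets of the urea cycle enzymes in each of the 30 arrays, with points for arrays and bars for the group mean ± SD (n = 5), every panel spanning the same height. The dosed arrays of Ass1 and of the dimmer Cps1 probe set lie below all vehicle arrays of their time, while those of Arg1 and of the brighter Cps1 probe set overlap with them.

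Ass1 makes argininosuccinate from citrulline and aspartate. In log2 signal its 5 vehicle arrays at 24 h read 15.52, 15.59, 15.63, 15.63 and 15.84. After 250 µM for 24 h they read 15.04, 14.95, 15.14, 14.89 and 15.05, and after 1000 µM 14.92, 15.01, 15.14, 14.98 and 14.96. Every dosed array at 24 h was thus below every vehicle array, while the arrays of both doses lay among each other. At 48 h the vehicle arrays read 15.65, 15.51, 15.50, 15.54 and 15.57. After 250 µM for 48 h the signal was 14.72, 14.71, 14.81, 14.79 and 14.79, and after 1000 µM it was 14.83, 14.74, 14.82, 14.67 and 14.91. Again no dosed array reached the vehicle range. The change was -0.63 ± 0.055 (limma adjusted p = 7.63e-11) at 250 µM and -0.64 ± 0.055 (adjusted p = 5.68e-11) at 1000 µM after 24 h. After 48 h it was -0.79 ± 0.055 (adjusted p = 1.87e-13) and -0.76 ± 0.055 (adjusted p = 6.48e-13). From the Ass1 signal alone, a smaller share of hepatocyte RNA in a well and less Ass1 RNA per hepatocyte cannot be told apart. The test of Ass1 against Arg1 within the same arrays is given below. Ordered by mean log2 level, vehicle at 24 h (15.64) and at 48 h (15.55) came first and overlapped, then 250 µM (15.01) and 1000 µM (15.002) at 24 h, which overlapped, and last 1000 µM (14.79) and 250 µM (14.77) at 48 h, which overlapped too. With the actin ratio as a covariate the 48 h changes of Ass1 were -0.73 at 250 µM and -0.72 at 1000 µM (adjusted p = 5.16e-10 and 9.49e-11). Without the 4 vehicle arrays of raised ratio they were -0.77 and -0.75 (adjusted p = 9.64e-07 and 2.05e-06). The Ass1 effect at 48 h minus that at 24 h was -0.16 ± 0.078 (adjusted p = 0.21) at 250 µM and -0.12 ± 0.078 (adjusted p = 0.574) at 1000 µM, so no difference between times passed the test. Between 1000 and 250 µM Ass1 differed by -0.01 at 24 h (95% interval -0.12 to 0.1) and by 0.03 at 48 h (95% interval -0.086 to 0.14).

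Otc, the mitochondrial enzyme that makes citrulline, was called lower at 24 h but not at 48 h. At 24 h its vehicle arrays read 11.14, 11.47, 11.20, 11.43 and 11.29, and those at 250 µM read 10.74, 10.43, 10.68, 10.25 and 10.72. At 1000 µM they read 10.96, 10.75, 10.78, 11.14 and 10.58. All 10 dosed arrays at 24 h were below the lowest vehicle array, though the highest at 1000 µM (11.144) missed it (11.145) by very little. At 48 h the vehicle arrays read 10.88, 11.12, 11.08, 11.34 and 11.15. Those at 250 µM were 11.06, 10.81, 11.19, 11.06 and 11.09, and those at 1000 µM 10.67, 11.12, 11.19, 10.91 and 11.05, so all 3 groups overlapped. Otc fell by 0.74 ± 0.11 (limma adjusted p = 3.92e-06) at 250 µM and by 0.46 ± 0.11 (adjusted p = 0.0023) at 1000 µM after 24 h. At 48 h the change was -0.07 ± 0.11 (adjusted p = 0.649) and -0.13 ± 0.11 (adjusted p = 0.43). The 95% intervals ran from -0.3 to 0.16 and from -0.35 to 0.1. Ordered by mean log2 level, the groups ran from vehicle at 24 h (11.31) and 48 h (11.11) through 250 µM (11.04) and 1000 µM (10.99) at 48 h to 1000 µM (10.84) and 250 µM (10.57) at 24 h, and each neighbouring pair overlapped. At 1000 µM Otc was 0.28 ± 0.11 above its level at 250 µM after 24 h, which did not pass the test (95% interval 0.053 to 0.51, adjusted p = 1).

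The test of the difference itself found the 250 µM effect on Otc to be 0.67 ± 0.16 higher at 48 h than at 24 h (limma adjusted p = 0.00736), and Otc was the 1 of 5 members called higher in that comparison, where 3.87% of all genes were (8.39% in either direction). For 1000 µM the difference was 0.34 ± 0.16 (adjusted p = 0.4). The call at 250 µM depended on the processing. It was lost with the actin ratio as a covariate, at a difference of 0.51 (adjusted p = 0.124). It was also lost with array medians set equal, at 0.66 (adjusted p = 0.0589). When the 4 vehicle arrays of high ratio were dropped, 1 vehicle array remained at 48 h and the difference was 0.44. From 24 to 48 h mean log2 Otc went from 10.57 to 11.04 at 250 µM and from 11.31 to 11.11 in vehicle. The 48 h change of Otc at 250 µM was -0.23 with the covariate and -0.30 without those 4 arrays (adjusted p = 0.23 and 0.381), against -0.07 with all arrays.

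Cps1, which commits ammonia to the cycle, was read by 2 probe sets, a brighter one, which stands for the gene in the gene tests, and a dimmer one. The accession that the table gives for the dimmer probe set is a RefSeq transcript of Cps1, while that of the brighter did not match RefSeq, so its gene rests on the table alone. For the dimmer probe set the vehicle arrays at 24 h read 14.93, 15.46, 15.56, 15.47 and 15.69 in log2 signal. Those at 250 µM read 14.66, 14.65, 14.64, 14.71 and 14.79, and those at 1000 µM 14.59, 14.72, 14.81, 14.79 and 14.74. All dosed arrays were lower than all vehicle arrays, of which replicate 1 was the lowest. At 48 h vehicle read 14.98, 15.28, 15.17, 15.40 and 15.41. With 250 µM the 48 h arrays read 14.76, 14.48, 14.50, 14.55 and 14.51, and with 1000 µM 14.68, 14.72, 14.61, 14.74 and 14.94, again all below vehicle. In the fit over 18625 probe sets, the dimmer one fell by 0.73 ± 0.094 (limma adjusted p = 3.42e-07) and 0.69 ± 0.094 (adjusted p = 1.06e-06) at 24 h after 250 and 1000 µM. At 48 h it fell by 0.69 ± 0.094 (adjusted p = 6.11e-07) and 0.51 ± 0.094 (adjusted p = 9.6e-05). In the same 4 comparisons 8.78%, 9.08%, 20.9% and 13.6% of probe sets were called lower, and 6.86%, 6.63%, 12.1% and 8.4% had all dosed arrays below all vehicle arrays. By mean level the order was vehicle at 24 h (15.42) and at 48 h (15.25), then 1000 µM at 48 h (14.74), which lay below vehicle at 48 h but reached (14.94) just above the lowest vehicle array of 24 h (14.932), then 1000 µM at 24 h (14.73), 250 µM at 24 h (14.69) and 250 µM at 48 h (14.56), where each neighbouring pair of dosed groups overlapped. Without the 4 vehicle arrays of raised actin ratio the 48 h changes were -0.84 (adjusted p = 0.00038) and -0.66 (adjusted p = 0.00509), and with the ratio as a covariate -0.77 and -0.57 (adjusted p = 1.02e-05 and 2e-04).

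For the brighter probe set the vehicle arrays at 24 h read 15.72, 15.95, 16.004, 15.92 and 16.09, those at 250 µM 15.77, 15.68, 15.85, 15.68 and 15.73, and those at 1000 µM 15.37, 15.80, 15.90, 15.73 and 15.86. At 48 h the group means were 15.82 (vehicle), 15.69 (250 µM) and 15.65 (1000 µM). The dosed arrays overlapped with vehicle at both times, and so did every neighbouring pair of groups in the order of levels. The change was -0.19 ± 0.075 (limma adjusted p = 0.0698) and -0.20 ± 0.075 (adjusted p = 0.0575) at 24 h, and -0.12 ± 0.075 (adjusted p = 0.207) and -0.16 ± 0.075 (adjusted p = 0.107) at 48 h. The 24 h values lay near the threshold, and leaving out a single array could bring a call. Without vehicle replicate 1 the changes were -0.25 (adjusted p = 0.0163) and -0.26 (adjusted p = 0.0136). At 1000 µM and 24 h the call also appeared without dosed replicate 3 (-0.24, adjusted p = 0.0251) or replicate 5 (-0.23, adjusted p = 0.038). With the mean of both probe sets Cps1 was called lower in all 4 comparisons, with changes of -0.46, -0.45, -0.40 and -0.34 (adjusted p from 7.86e-06 to 0.000516), and after quantile normalization the brighter one itself was called lower in all 4, with changes of -0.14, -0.12, -0.18 and -0.12.

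The difference between both Cps1 probe sets within each array, dimmer minus brighter, can be followed directly. It was -0.51 ± 0.16 (SD, n = 5) in vehicle at 24 h, -1.05 ± 0.11 at 250 µM and -1.0 ± 0.14 at 1000 µM. At 48 h it was -0.57 ± 0.21 in vehicle, -1.13 ± 0.16 at 250 µM and -0.91 ± 0.19 at 1000 µM (SD, n = 5). The probe sets therefore changed by unequal amounts under dosing. In exact two-sided permutation tests over arrays, adjusted over 7 comparisons, the difference shifted by -0.54 and -0.49 at 24 h (both adjusted p = 0.037), by -0.57 at 250 µM and 48 h (adjusted p = 0.037) and by -0.35 at 1000 µM and 48 h (adjusted p = 0.0694). Of all 31042 probe sets, the brighter ranked 65 by mean level and the dimmer 365. Over the 100 brightest probe sets the median absolute change was 0.069 and 0.091 at 24 h and 0.082 and 0.072 at 48 h, beside 0.15, 0.16, 0.24 and 0.2 over all tested probe sets. Whether the high signal of the brighter probe set had a part in its smaller change was not tested.

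**Figure D2:**
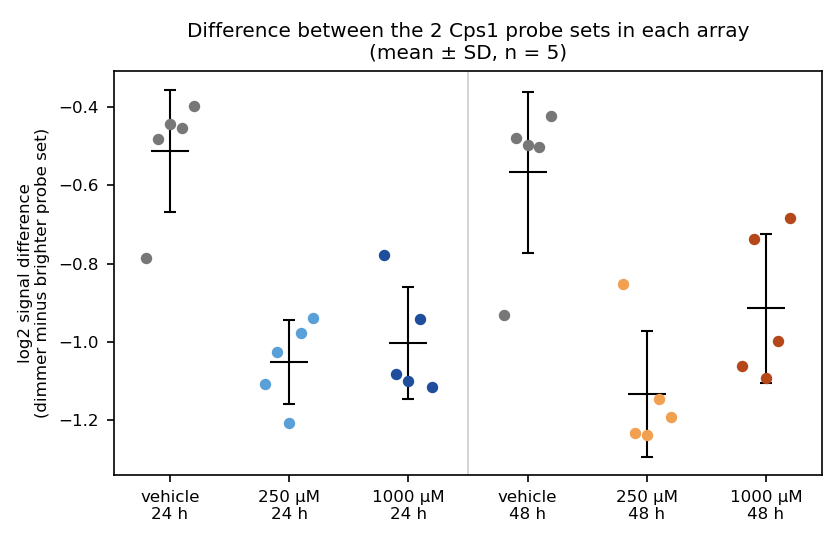
Log2 signal of the dimmer Cps1 probe set minus that of the brighter within each array, as points, with the group mean ± SD (n = 5). The mean is -0.51 and -0.57 in vehicle at 24 and 48 h and between -0.91 and -1.13 in the 4 dosed groups.

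Asl, which releases arginine, fell by a smaller amount. At 24 h its probe set read 13.89, 13.90, 13.98, 13.94 and 13.96 in vehicle, 13.79, 13.72, 13.83, 13.66 and 13.75 at 250 µM and 13.72, 13.67, 13.76, 13.71 and 13.76 at 1000 µM. At 48 h it read 14.10, 13.85, 13.87, 13.90 and 13.79 in vehicle, 13.57, 13.45, 13.54, 13.62 and 13.59 at 250 µM and 13.53, 13.45, 13.54, 13.48 and 13.55 at 1000 µM. Dosed and vehicle arrays were apart at both times, with the wider gap at 48 h. The change was -0.18 ± 0.048 (limma adjusted p = 0.00469) and -0.21 ± 0.048 (adjusted p = 0.00124) at 24 h, and -0.35 ± 0.048 (adjusted p = 4.97e-07) and -0.39 ± 0.048 (adjusted p = 6.84e-08) at 48 h, for 250 and 1000 µM. The 24 h calls were lost when array medians were set equal (-0.17 and -0.18, adjusted p = 0.23 and 0.19). At 48 h the change without the 4 vehicle arrays of raised actin ratio was -0.34 and -0.39 (adjusted p = 0.000977 and 0.000255), and with the ratio as a covariate -0.26 and -0.33 (adjusted p = 0.000472 and 5.55e-06). By level, vehicle at 24 h (13.94) and 48 h (13.90) overlapped, as did vehicle at 48 h and 250 µM at 24 h (13.75), then 250 and 1000 µM (13.72) at 24 h, and last 250 µM (13.56) and 1000 µM (13.51) at 48 h; only the step between the dosed groups of 24 and of 48 h showed no overlap. The dose effect at 48 h minus that at 24 h was -0.16 ± 0.068 (adjusted p = 0.129) at 250 µM and -0.18 ± 0.068 (adjusted p = 0.255) at 1000 µM.

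The table names a further probe set as Asl, but its accession is a RefSeq transcript of Hnrnpab, an RNA-binding protein, so it was not used for Asl. Its changes were -0.21, -0.20, -0.28 and -0.32 in the 4 comparisons with vehicle, those of the Asl probe set in use -0.18, -0.21, -0.35 and -0.39, and those of a probe set that the table names Hnrnpab -0.14, -0.17, -0.23 and -0.31. These values are all of the same sign and of similar size, so they do not tell which gene the probe set reads.

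Arg1 releases urea, and its probe set ranked 21 by mean level over the array. At 24 h vehicle read 15.78, 16.11, 16.15, 16.04 and 16.30, against 15.97, 15.94, 16.19, 15.89 and 16.12 at 250 µM and 15.78, 16.005, 16.22, 16.05 and 16.12 at 1000 µM. At 48 h vehicle read 15.94, 15.85, 15.80, 15.97 and 15.93, against 15.98, 15.97, 16.18, 16.13 and 16.10 at 250 µM and 15.96, 15.81, 16.06, 16.07 and 15.91 at 1000 µM. The groups overlapped at 24 h. At 48 h 4 of 5 arrays at 250 µM were above all vehicle arrays and the lowest (15.975) was level with the highest of vehicle. The change was -0.05 ± 0.078 (limma adjusted p = 0.726) and -0.04 ± 0.078 (adjusted p = 0.806) at 24 h, and 0.18 ± 0.078 (adjusted p = 0.0678) and 0.07 ± 0.078 (adjusted p = 0.578) at 48 h. The 95% intervals at 24 h, -0.21 to 0.1 and -0.2 to 0.12, hold no fall as large as that of Ass1. The 100 brightest probe sets, whose changes are given with Cps1, include that of Arg1, and the part of high signal in the small change of Arg1 was not tested. Arg1 at 250 µM and 48 h passed the threshold when only the groups compared entered the fit (adjusted p = 0.0126), and after quantile normalization, where it was 0.09 at 250 µM and 0.10 at 1000 µM (adjusted p = 0.00844 and 0.0067). Without the 4 vehicle arrays of raised actin ratio it was 0.10 (adjusted p = 0.75). By level all neighbouring groups overlapped, from vehicle at 24 h and 250 µM at 48 h (both 16.08) through 1000 µM (16.04) and 250 µM (16.02) at 24 h to 1000 µM (15.96) and vehicle (15.90) at 48 h.

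**Figure D3:**
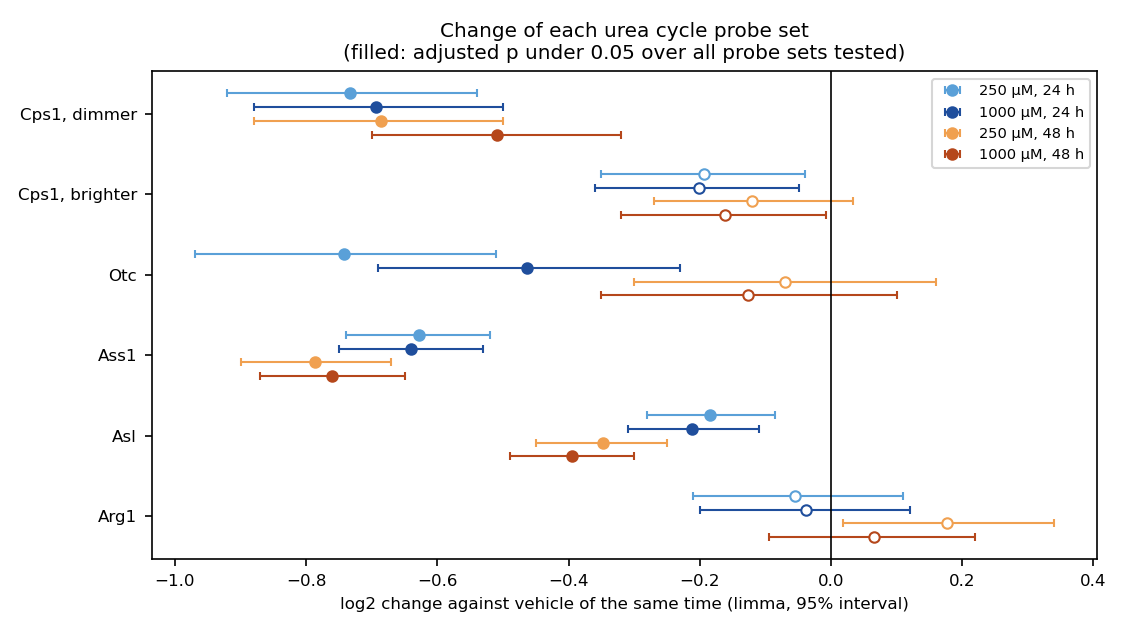
Log2 change of 6 urea cycle probe sets against vehicle of the same time, with limma's 95% intervals, for 250 and 1000 µM at 24 and 48 h; filled points passed the test over all probe sets tested. Ass1 lies between -0.63 and -0.79, Asl between -0.18 and -0.39 and Arg1 near 0, and Otc is called at 24 h only.

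Whether one enzyme changed more than another was tested on the difference between their log2 signals within each array, in 40 exact two-sided permutation tests (10 pairs of genes, 4 comparisons, smallest possible p = 0.00794). Ass1 changed more than Arg1 by -0.57 and -0.60 at 24 h and by -0.96 and -0.83 at 48 h (permutation adjusted p = 0.0151 in each). Ass1 also changed more than Asl, its partner in the next step, by -0.44 and -0.43 at 24 h and -0.44 and -0.37 at 48 h (permutation adjusted p = 0.0151 in each). Asl changed more than Arg1 at 48 h, by -0.53 and -0.46 (permutation adjusted p = 0.0151 in both), and by -0.13 and -0.17 at 24 h, which did not pass (adjusted p = 0.159 in both). Otc and Ass1 shifted by amounts that did not differ beyond the spread at 24 h (-0.11 and 0.18, permutation adjusted p = 0.317 and 0.272), whereas at 48 h Otc changed less than Ass1, by 0.72 and 0.63 (permutation adjusted p = 0.0151 in both). Cps1, by its brighter probe set, fell more than Arg1 at 24 h, by -0.14 and -0.16 (permutation adjusted p = 0.0381 and 0.0265). At 48 h this was -0.3 and -0.23 (permutation adjusted p = 0.0151 in both). That probe set fell less than Ass1, by 0.43 and 0.44 at 24 h and 0.67 and 0.6 at 48 h (permutation adjusted p = 0.0151 in each).

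In vehicle, 48 h against 24 h, 0 of 5 members were called by limma, where 28.1% of all genes were. Only Arg1 had an unadjusted p under 0.05, with a change of -0.18 ± 0.078 (limma adjusted p = 0.0861). Without vehicle replicate 1 of 24 h, the change of Arg1 over time was -0.25 (adjusted p = 0.00927), and the 250 µM effect on Arg1 at 48 h minus 24 h was 0.31 (adjusted p = 0.043). Between 1000 and 250 µM, 0 of 5 members were called at 24 h and 0 of 5 at 48 h, where 0.019% and 0.0665% of all genes were called, and only Otc at 24 h had an unadjusted p under 0.05. For the 1000 µM effect at 48 h minus 24 h, 0 of 5 members were called by limma beside 0.96% of all genes, and the unadjusted p of Otc and Asl was under 0.05. Replicate 1 of vehicle at 24 h was the lowest vehicle array of its time for all 6 probe sets plotted. Once each group's mean was removed, Cps1 (brighter probe set) and Arg1, both near the top of the array's range, followed each other over the 30 arrays with r = 0.87, while Cps1 and Otc had r = -0.13; all points share their arrays and the scaling of each array.

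Genes that feed the mitochondrial steps were called in both directions. Of 9 tested genes of mitochondrial supply, 1 rose and 2 fell in each of the 4 comparisons with vehicle. The list's median change was 0.027, 0.03, 0.023 and -0.058 for 250 and 1000 µM at 24 h and then at 48 h. In the same order, 8.3%, 8.27%, 15.2% and 11.5% of all tested genes were called higher, and 11%, 11.2%, 26% and 18.3% lower. These shares also belong beside the counts of the lists that follow. Slc25a15, the carrier that brings ornithine into the mitochondrion, fell by 0.50 ± 0.071 at each dose at 24 h (limma adjusted p = 1.79e-06 and 1.8e-06) and by 0.37 ± 0.071 at each dose at 48 h (adjusted p = 7.49e-05 and 0.000115). The 48 h calls were lost without the 4 vehicle arrays of raised actin ratio (-0.10 and -0.10, adjusted p = 0.651 and 0.671), and the 250 µM call also with the ratio as a covariate (-0.18, adjusted p = 0.0652). Slc25a13, the aspartate/glutamate carrier citrin, which supplies the aspartate that Ass1 uses, rose by 0.29 and 0.23 at 24 h and by 0.39 and 0.35 at 48 h (all SE 0.069, limma adjusted p from 2.34e-05 to 0.0147), so it moved opposite to Ass1. With array medians set equal its 1000 µM rise at 24 h was 0.27 (adjusted p = 0.0837). Glud1, which releases ammonia from glutamate, changed by -0.21 and -0.25 at 24 h and by -0.13 and -0.17 at 48 h, and each of these calls was lost when array medians were set equal, at values of similar size (-0.19, -0.21, -0.12 and -0.21, adjusted p from 0.058 to 0.25). Without the 4 vehicle arrays of raised actin ratio the 48 h values were 0.04 and -0.01 (adjusted p = 0.801 and 0.975). Nags, whose product activates Cps1, read -0.01, 0.03, 0.02 and -0.06 (SE 0.062) and passed in none.

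Around the cytosolic steps, 13 genes were tested, with 1 rise and 4 falls at 250 µM and 24 h, 1 and 3 at 1000 µM and 24 h, and 2 and 3 at each dose at 48 h. The median change of this list was -0.15, -0.027, -0.022 and -0.11. Ornithine aminotransferase (Oat), which diverts ornithine from the cycle towards glutamate, rose by 1.19 and 1.17 ± 0.14 at 24 h and by 1.76 and 1.46 ± 0.14 at 48 h (limma adjusted p from 2.22e-12 to 4.42e-08). Its mean log2 signal was 12.88 in vehicle against 14.07 and 14.04 in dosed cells at 24 h, and 12.73 against 14.49 and 14.19 at 48 h. Aqp9, a liver channel that passes glycerol and urea, fell by 0.99 and 0.98 ± 0.12 at 24 h and by 1.38 and 1.32 ± 0.12 at 48 h (adjusted p from 1.5e-11 to 6.11e-08). Slc7a1, a carrier of arginine and other cationic amino acids, fell by 0.76 ± 0.14 at each dose at 24 h and by 1.31 and 1.16 ± 0.14 at 48 h (adjusted p from 2.63e-09 to 8.44e-05). Agmat, an agmatinase, fell by 0.65 and 0.59 ± 0.098 at 24 h and by 0.38 and 0.36 ± 0.098 at 48 h, where the calls were lost with the actin covariate (-0.20 and -0.23, adjusted p = 0.223 and 0.123) and without the 4 vehicle arrays (-0.17 and -0.16, adjusted p = 0.593 and 0.662). Arg2, the mitochondrial arginase, read -0.37, 0.02, -0.45 and -0.43 (SE 0.27) and passed in none.

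In ammonia and glutamine handling, 6 genes were tested, of which 0 rose and 2 fell at 24 h at each dose, 1 rose and 3 fell at 250 µM and 48 h, and 0 rose and 3 fell at 1000 µM and 48 h. The list's median change was -0.075, -0.057, -0.16 and -0.16. Slc38a3, a glutamine carrier of periportal hepatocytes, fell by 0.61 and 0.64 ± 0.14 at 24 h and by 0.63 and 0.56 ± 0.14 at 48 h (limma adjusted p from 0.000343 to 0.00205). Its 1000 µM call at 48 h was lost without the 4 vehicle arrays (-0.52, adjusted p = 0.0833). Slc38a4, a carrier of neutral amino acids, fell by 0.30 and 0.28 ± 0.052 at 24 h and by 0.36 and 0.38 ± 0.052 at 48 h (adjusted p from 6.76e-07 to 0.000101). Glutamine synthetase (Glul), the other route by which liver removes ammonia, read -0.08 and -0.04 at 24 h and 0.07 and 0.03 at 48 h (SE 0.075) and passed in none.

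**Figure D4:**
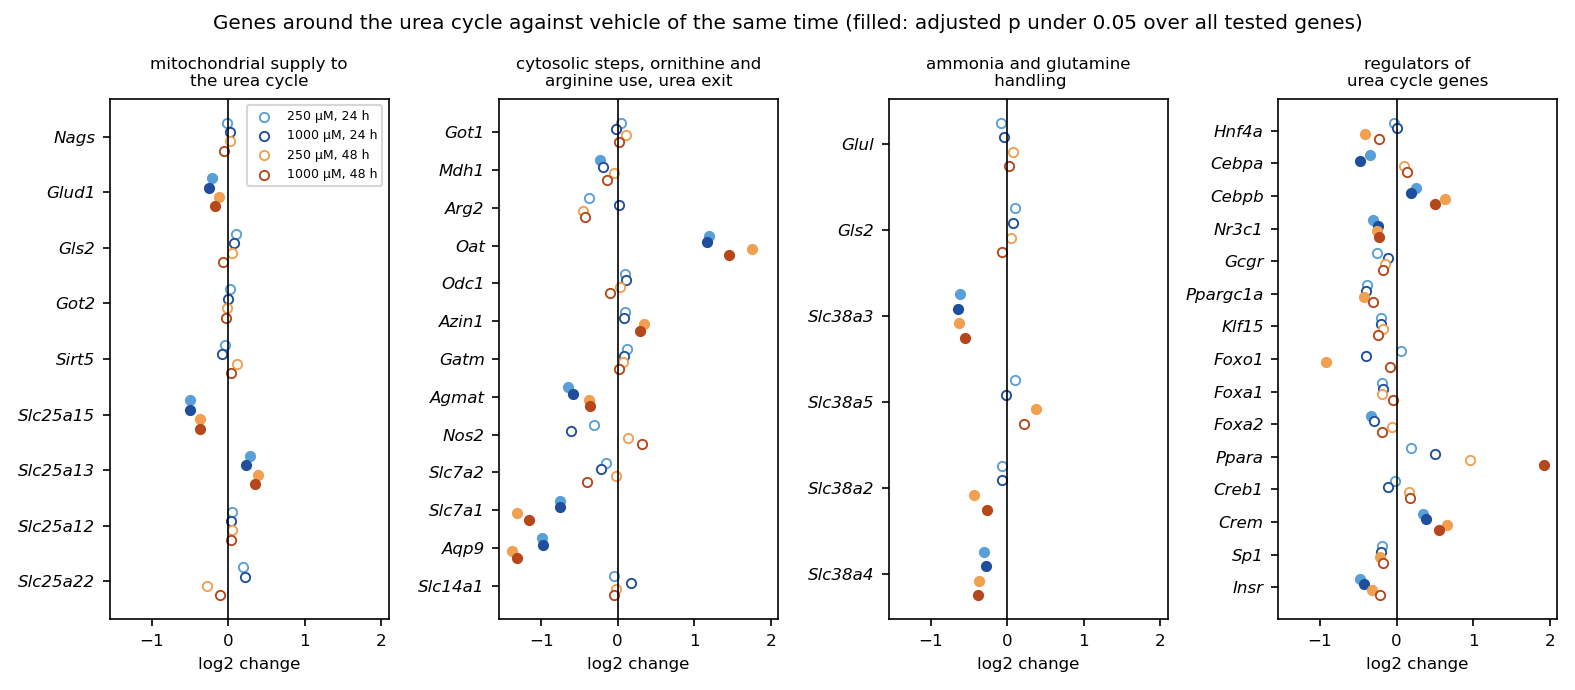
Log2 change against vehicle of the same time for the tested genes of 4 lists around the urea cycle, 1 point per dose and time, filled where the adjusted p was under 0.05 over all tested genes. Oat lies farthest to the right among genes of arginine and ornithine use (1.17 to 1.76), while Aqp9 and Slc7a1 lie farthest to the left (-0.76 to -1.38).

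Of 15 tested regulators of urea cycle genes, 2 rose and 4 fell at 250 µM and 24 h, 2 rose and 3 fell at 1000 µM and 24 h, 2 rose and 6 fell at 250 µM and 48 h, and 3 rose and 1 fell at 1000 µM and 48 h. The median change was -0.19, -0.2, -0.18 and -0.17. Cebpa, a liver transcription factor that drives Cps1 and other urea cycle genes, fell by 0.35 and 0.47 ± 0.071 at 24 h (limma adjusted p = 0.000383 and 4.9e-06) and read 0.09 and 0.14 at 48 h (adjusted p = 0.328 and 0.135). From 24 to 48 h its mean log2 signal went from 12.45 to 11.92 in vehicle, from 12.11 to 12.01 at 250 µM and from 11.98 to 12.06 at 1000 µM. The test of the Cebpa effect at 48 h minus that at 24 h gave 0.44 ± 0.1 (adjusted p = 0.0066) at 250 µM and 0.61 ± 0.1 (adjusted p = 0.000615) at 1000 µM. With array medians set equal these were 0.42 (adjusted p = 0.167) and 0.54 (adjusted p = 0.261), and the first was 0.57 (adjusted p = 0.0585) without the 4 vehicle arrays. Cebpb rose by 0.25 and 0.19 ± 0.061 at 24 h and by 0.63 and 0.51 ± 0.061 at 48 h, and with medians set equal the 1000 µM rise at 24 h was 0.22 (adjusted p = 0.0627). Crem, a modulator of cyclic AMP response, rose by 0.35 and 0.38 ± 0.064 at 24 h and by 0.66 and 0.55 ± 0.064 at 48 h. Nr3c1, the glucocorticoid receptor, fell by 0.31 and 0.24 ± 0.06 at 24 h and by 0.25 and 0.23 ± 0.06 at 48 h, and the 1000 µM fall at 24 h was -0.20 (adjusted p = 0.138) with medians set equal. Hnf4a read -0.03 and 0.00 at 24 h (SE 0.099) and at 48 h fell by 0.41 at 250 µM (adjusted p = 0.00108) and read -0.23 at 1000 µM (adjusted p = 0.0749), and the 250 µM value was -0.06 (adjusted p = 0.622) with the actin ratio as a covariate and 0.09 (adjusted p = 0.746) without the 4 vehicle arrays. Insr, the insulin receptor, fell by 0.48 and 0.42 ± 0.12 at 24 h and by 0.32 ± 0.12 at 250 µM and 48 h, the last of which was -0.04 (adjusted p = 0.933) without the 4 vehicle arrays. Foxo1, a transcription factor held back by insulin, fell by 0.93 ± 0.34 (adjusted p = 0.0268) at 250 µM and 48 h, where it was -0.89 (adjusted p = 0.428) without the 4 vehicle arrays; its mean in that dosed group, 7.43, was below the limit on low signal. Ppara, the receptor through which peroxisome proliferators act, read 0.18 and 0.51 at 24 h and 0.96 at 250 µM and 48 h (SE 0.55, none called), and rose by 1.93 ± 0.55 (adjusted p = 0.00719) at 1000 µM and 48 h, where it was 1.90 (adjusted p = 0.281) without the 4 vehicle arrays; its mean in vehicle at 48 h, 6.74, was below the limit on low signal.

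Genes of neither liver zone moved as one. Of 6 tested periportal markers 1 rose and 3 fell in each of the 4 comparisons with vehicle, and of 7 tested perivenous markers 1 rose and 4 fell in each. Among the periportal genes Cdh1, an adhesion molecule, fell by 0.94 and 0.84 ± 0.076 at 24 h and by 1.14 and 0.88 ± 0.076 at 48 h. Hal, which degrades histidine, fell by 0.995 and 0.965 ± 0.15 at 24 h and by 0.49 and 0.69 ± 0.15 at 48 h, where both calls were lost without the 4 vehicle arrays, at values of similar size (-0.42 and -0.62, adjusted p = 0.408 and 0.185). Pck1, a key enzyme of gluconeogenesis, rose by 1.19 and 0.70 ± 0.18 at 24 h and by 1.66 and 1.18 ± 0.18 at 48 h. Among perivenous genes Cyp7a1, which starts the classic route from cholesterol to bile acids, fell by 1.24 and 1.00 ± 0.13 at 24 h and by 1.62 and 1.33 ± 0.13 at 48 h, and Cyp27a1 by 0.74 and 0.64 ± 0.076 and then 0.78 and 0.70 ± 0.076. Cyp2e1 fell by 0.40 ± 0.1 at each dose at 24 h and by 0.71 and 0.70 ± 0.1 at 48 h, with the 24 h calls lost when medians were set equal (-0.38 and -0.365, adjusted p = 0.0708 and 0.0883) and the 48 h calls without the 4 vehicle arrays (-0.46 and -0.46, adjusted p = 0.0835 and 0.0971). The riser in this list was Oat.

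Markers of other cells were read beside these results. The summed signal of 10 stellate cell and myofibroblast markers, 7 of them above the limit on low signal, was 11278 to 16481 in vehicle at 24 h against 7983 to 8909 at 250 µM and 7985 to 9144 at 1000 µM. At 48 h it was 16274 to 17388 in vehicle against 7616 to 8604 and 8017 to 9701, so it was lower in every dosed array. Most of this sum was Vim, which fell by 1.28, 1.19, 1.70 and 1.41 ± 0.091. Without Vim the sum of the other 9 overlapped between dosed and vehicle arrays, at 3885 to 5316 in vehicle, 3926 to 5248 at 250 µM and 4153 to 4634 at 1000 µM after 24 h, and at 3823 to 4720, 3794 to 4682 and 3604 to 4959 after 48 h. Acta2 fell by 0.47 and 0.46 ± 0.14 at 24 h and Timp1 by 0.49 ± 0.16 at 1000 µM and 48 h, whereas Col1a1 rose by 0.78 ± 0.21 at 250 µM and 48 h (limma adjusted p = 0.00373). Des, Col3a1 and Reln passed in none of the 4 comparisons, and Col1a2, Lrat and Pdgfrb were below the limit. The part of other cells in the fall of Ass1, Asl or Cps1 was not tested. The summed signal of 8 hepatocyte markers was 391596 to 571714, 386621 to 456835 and 327697 to 456680 at 24 h (vehicle, 250 µM and 1000 µM) and 384343 to 454639, 346471 to 401606 and 326668 to 389485 at 48 h. Of these 8, at each dose 2 were called lower at 24 h and 3 at 48 h, and 0 were called higher. The list was split: at 48 h Ahsg averaged 15.80 in vehicle and 14.93 at 250 µM in log2 signal, while Alb averaged 15.94 and 16.03. Of Kupffer cell and leukocyte markers 6 of 9 were above the limit (not Cd163, Ptprc or Laptm5), with summed signals overlapping at 24 h (21404 to 28449 in vehicle, 23365 to 26214 and 24140 to 27426 in dosed arrays). At 48 h they were 20222 to 22527 in vehicle, 23163 to 24758 at 250 µM and 20940 to 23327 at 1000 µM. Of these 6 markers 1 was called higher and 0 lower at 250 µM and 48 h. Cd14, the marker of highest signal, averaged 13.54 in vehicle and 13.88 at 250 µM in log2 signal at 48 h. In the same groups Lyz2 averaged 12.88 and 12.77, and Cd68 averaged 9.35 and 9.27. Of endothelial markers 2 of 6 were above it (not Pecam1, Stab2, Vwf or Tek) and of cholangiocyte markers 1 of 4 (not Krt7, Krt19 or Spp1).

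For each member the 3 genes whose log2 signals followed it most closely over the 30 arrays are named as a description, since all points share the same arrays, doses and times. Ass1 was followed by Retreg1, a receptor for the turnover of endoplasmic reticulum (r = 0.962), Apoa5, a lipoprotein component (r = 0.961), and B3galnt1, a glycosyltransferase (r = 0.958). Asl was followed by Nupr1 (r = 0.942), Serpina3n (r = 0.933) and Fetub (r = 0.932). Otc had lower values, with Aqp11, a water channel, at r = 0.806, Mterf2, a mitochondrial protein, at 0.805 and Iyd, an iodotyrosine deiodinase, at 0.803. The changes of Aqp11 against vehicle were -0.64 and -0.54 at 24 h and -0.28 at each dose at 48 h. Cps1, by its brighter probe set, was followed by Inhca (r = 0.917), Hpx, the plasma protein hemopexin (r = 0.889), and Ahcy, which hydrolyses adenosylhomocysteine (r = 0.875). Arg1 was followed by Skp1, a ubiquitin ligase subunit (r = 0.919), Rbp4, the plasma retinol carrier (r = 0.902), and Adk, adenosine kinase (r = 0.896). None of these was called at 24 h, and at 48 h Adk was called higher at 250 µM (0.21 ± 0.069, limma adjusted p = 0.0162).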

How the data were processed

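RNA from 30 wells of rat hepatocytes was hybridised to 1 expression array each. The authors deposited 1 intensity per probe set, which per the submitters' processing notes came from MAS5, of unstated version and scaling. With the top and bottom 2% of values trimmed, array means were 1500.6 to 1500.7. The members and the gene lists were chosen with earlier results of these data known.

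From these signals log2(signal + 1) was computed, without further scaling. Of 31099 probe sets, 57 controls were left out, then the 40% of the rest with the lowest mean (under 7.878, a signal of 234). Gene tests also left out 13 probe sets whose accession belongs in RefSeq to another gene than the one listed, a rule chosen once the annotation had been seen. For each gene the probe set of highest mean was used. Of the probe sets without controls, 20826 had 1 gene in the table, 436 several and 9780 none; 20758 were matched to RefSeq GRCr8 by gene number, and symbols were updated. limma 3.58.1 in R 4.3.3 fitted 1 mean per group with a mean-variance trend (24 residual degrees of freedom, 9 contrasts, Benjamini-Hochberg adjustment over all genes). Where a single probe set was tested, adjustment was over all 18625 kept. Differences within arrays and array quality used exact permutation tests. Data for 250 µM against vehicle at 24 h were simulated with independent normal noise (10522 genes, 50 changed at each size). The fit recovered 18% of genes changed by 0.25, 60% at 0.5, 90% at 1 and 100% at 2 (log2), with 5.63% of calls false. In the real comparison 2028 genes were called, so these rates do not describe it. Named genes were the members with every probe set, all list genes by count with up to 4 called ones per list and time, and a few fixed by name (among them Nags, Arg2, Glul and Hnf4a), and the 3 genes most like each member. List genes not tested were left out (for example Ca5a, Slc25a2, Fh and Rhbg). Alternatives were other scalings, pseudocounts, filters, variance models, probe set choices, the actin ratio, the array set as a block and leaving out arrays. Protein sequences were not used here.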

Additional observations from a re-analysis of the deposited data

Results flagged for a closer look

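Among 42 groups of 5 arrays (7 probe sets by 6 groups), 2 held an array far from the other 4, beside 2.1 that chance gives at 1 in 20. The dimmer Cps1 probe set read 14.759 in replicate 1 of 250 µM at 48 h, while the other 4 arrays lay between 14.481 and 14.554. The probe set listed as Asl whose accession is Hnrnpab read 14.322 in replicate 1 of vehicle at 48 h, while the others lay between 13.946 and 14.03.

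In the main fit the effect of 250 µM on Otc was 0.671 ± 0.16 higher (log2) at 48 h than at 24 h (limma adjusted p = 0.00736). This difference was called under 11 of 15 alternatives. With the 4 vehicle arrays of raised actin ratio left out it came to 0.441.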

How the results depend on the processing

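Ass1 was called lower in each of the 4 comparisons with vehicle under all 15 alternatives and with each of 10 arrays left out in turn, with changes from -0.866 to -0.591 under the alternatives. The dimmer Cps1 probe set was called in those 4 comparisons under 11 of 11 alternatives, added after seeing the data. Under quantile normalization the number of members called was 4 at 250 µM and 48 h (main 2), 4 at 1000 µM and 48 h (main 2), 1 in vehicle over time (main 0) and 3 for the 250 µM effect over time (main 1). That last count was 0 with array medians set equal, with the actin ratio as a covariate, without the 4 vehicle arrays and without all 9 arrays of raised ratio, dosed ones included (Otc 0.438, adjusted p = 0.656). With one array left out, the counts were 3 to 4 at both doses at 24 h, 2 at both doses at 48 h, 0 to 1 in vehicle over time and 1 to 2 for the 250 µM effect over time; leaving out vehicle replicate 1 at 24 h gave the higher ones, as did dosed replicate 3 or 5 at 1000 µM and 24 h. The causes were not tested. No called change reversed; sign changes of uncalled values were not counted as reversals. The array numbers in the labels run through the groups in 5 sets with 1 array of each group. Of 35 pairs of same-set arrays, 12 had deviations that correlated at r over 0.1 (range -0.1 to 0.22), and 15 correlated best with their own set. By chance a best match with the own set would occur in 1 of 5 pairs. The main fit did not take the sets as pairs, and a fit with the set as a block is given beside it. With the set as a replicate block, a choice made after seeing the data, the number of members called was 1 in vehicle over time (Arg1, adjusted p = 0.0423) and 3 at 250 µM and 48 h (Arg1 0.177, adjusted p = 0.0308); the counts in the other 7 comparisons did not change, nor did a count over all genes by over 1.5 times.

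Counts over all genes moved by over 1.5 times as follows. With medians set equal they were 1325 for 2028 at 250 µM and 24 h, 1282 for 2049 at 1000 µM and 24 h, 151 for 883 and 15 for 101 in the effects of 250 and 1000 µM over time, and 0 for 2 and 2 for 7 between doses at 24 and 48 h. With the actin covariate they were 2778 for 4340 at 250 µM and 48 h, 748 for 2957 in vehicle over time and 248 for 883. Without the 4 vehicle arrays, which leaves 1 of that group and assumes it varies like the others, they were 1379 for 4340, 1176 for 3130 at 1000 µM and 48 h, 143 for 2957, 58 for 883, 38 for 101, and 1 for 2 and 13 for 7 between doses. Without all 9 they were 1290, 799, 118, 50, 9, 0 and 0 in the same order. With only the groups compared in the fit they were 1898 for 2957, 34 for 101, 4 for 2 and 3 for 7; with the mean of each gene's probe sets 1 for 2 and 3 for 7; without the variance trend 0 for 2 and 64 for 101; and for 1000 µM over time 155 after quantile normalization and 66 when probe sets were tested singly. The share of calls that were higher was 42.5% at 1000 µM and 24 h and 52.7% with medians set equal, and in vehicle over time 58.5% and 78.3%. Of related genes called at 48 h, 12 of 28 (250 µM) and 9 of 23 (1000 µM) lost the call without the 4 arrays.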
